A study of Mus musculus with 9 samples.

Results

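A line of mouse embryonic stem cells (ESC) that had been converted by the transcription factor Sox17, here called Sox17-XEN, was set against wild-type XEN cells. XEN cells are extraembryonic endoderm stem cells, and the wild-type line is IM8AR. The pair makes up 2 of the 9 RNA-seq libraries of the study, with 1 library a side. A gene was compared where the authors' estimate had the status OK in both libraries, where the higher of its levels was at least 1 FPKM, and where it did not lie on chromosome Y. This left 12540 of the 37975 genes in the table.

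Sox17-XEN carries a doxycycline (dox) inducible Sox17 construct, and the label gives its genotype as Sox17 overexpression. It names 30 days with dox and 30 days without, in wording from which the order cannot be read with certainty. The sample description calls the cells dox-indep. Wild-type XEN received no dox. The remaining libraries are the Sox17 ESC line after 7, 21, 35 and 49 h and 6 days of dox at 100 ng/ml, the same line without dox, and wild-type R1 ESC. Per the labels, ESC grew on mouse embryonic fibroblasts with serum and LIF, and XEN cells grew in serum and fibroblast-conditioned medium. Which of these conditions Sox17-XEN was kept in is not given in the sources used here, nor are the sequences that drive the transgene or whether the line is 1 clone. The day 6 sample carries the word SORT, with no detail of a gate.

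The primitive endoderm is the layer of the early embryo that gives rise to the parietal and visceral endoderm of the yolk sacs. XEN cells are its stem cell counterpart in culture. They express the GATA factors Gata4 and Gata6 together with Sox17 and Sox7. They also secrete large amounts of basement membrane, as parietal endoderm does when it lays down Reichert's membrane. Visceral endoderm instead takes up and digests maternal proteins through the receptors cubilin and megalin and makes apolipoproteins and serum proteins.

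Differences are given as log2(FPKM + 1) in Sox17-XEN minus the same in wild-type XEN, in log2 units. "Higher" and "lower" in counts mean past 2 log2 units, which is 4-fold in FPKM + 1. With 1 library a side there is no replicate error, and no test was possible. By this size 405 genes (3.23%) were higher and 238 (1.9%) were lower in Sox17-XEN, together 5.13% of those compared. Of all 12540 genes compared, 6252 had a difference below 0. Counts of list members given below are to be read beside these shares. Of 11255 protein-coding genes, 317 (2.82%) were higher and 153 (1.36%) were lower, together 4.18%. The Sox17 ESC line without dox and R1 ESC were past the same size at 0.681% of 13066 genes (0.421% higher and 0.26% lower in the Sox17 line). That ESC pair shares a cell type and, per the labels, culture with fibroblasts, serum and LIF. It gives no scale for how far XEN lines differ without conversion. Where both XEN-type libraries had 5 FPKM or more (8492 genes), the median difference was -0.05 log2 units and the central 95% of genes lay between -1.32 and 1.24. Genes close to this size were Ttr at -1.99 and Sdc2 at 1.98, which were not counted, and Lgr4 at 2.02 and Hs6st2 at 2.04, which were.

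The authors' confidence bounds are wide. The lower bound was 0 for 98.2% of the compared genes in Sox17-XEN and for 98.1% in wild-type XEN. Col5a1, which is on the list of fibroblast feeder markers, was the only gene past 2 log2 units whose intervals did not overlap. The absolute depth is unknown, and from the spacing of low values the depth of Sox17-XEN was estimated at 94.0% of that of wild-type XEN, a ratio shared by 11.4% of the 3689 low values. Overlapping genes that the table lists under 1 locus are less certain. They make up 44.2% of all genes compared and 280 of the 643 genes past the size. Among the 280 are Mogat1, Wnt11, Serpinf1, Tnc, Igfbp7, Col12a1, Meg3, Igf2, Egr1, Slc2a3 and Ndrg1.

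The primitive endoderm factors Gata4, Gata6, Sox7 and Foxa2 were above their level in wild-type XEN, whereas Sox17 and Cited1 were below it, and core pluripotency genes were near 0 in both lines. Gata4, a zinc finger factor of early endoderm, was at 660 FPKM in Sox17-XEN and 337 FPKM in wild-type XEN (0.97 log2 units). Gata6, which starts the primitive endoderm programme, was at 210 FPKM in Sox17-XEN and 99.9 FPKM in wild-type XEN. Sox7, an F-group SOX factor, was at 303 FPKM in Sox17-XEN and 79.4 FPKM in wild-type XEN, a difference of 1.92 log2 units that fell just short of the size. All 3 genes stood below 1 FPKM in both ESC libraries without dox.

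Sox17 itself was at 101 FPKM in Sox17-XEN and 239 FPKM in wild-type XEN, and a level per gene does not tell the construct from the cells' own copy. The forkhead factor Foxa2 was at 95.4 FPKM in Sox17-XEN and 41.8 FPKM in wild-type XEN. The receptor Pdgfra, a surface marker of primitive endoderm, was at 207 FPKM in Sox17-XEN and 78.3 FPKM in wild-type XEN. The endocytic adaptor Dab2 went the other way, with 232 FPKM in Sox17-XEN and 749 FPKM in wild-type XEN (-1.69 log2 units). Of 15 primitive endoderm genes compared, 0 were higher and 1 was lower, with a median of -0.29 and 8 differences below 0. The lower gene was the transcriptional coregulator Cited1, at 68.6 FPKM in Sox17-XEN and 313 FPKM in wild-type XEN (-2.17 log2 units).

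Pou5f1 (Oct4), Nanog and Sox2 form the core of the pluripotency network. Pou5f1 was at 2.54 FPKM in Sox17-XEN and 3.22 FPKM in wild-type XEN, against 1080 FPKM in R1 ESC. Nanog was at 0.163 FPKM and Sox2 at 0.129 FPKM in Sox17-XEN, and wild-type XEN had 0.325 FPKM of Nanog and 0.114 FPKM of Sox2. None of 17 pluripotency genes compared was past 2 log2 units (median -0.32). The largest differences among them were those of the Krüppel-like factor Klf4, with 236 FPKM in Sox17-XEN and 70.6 FPKM in wild-type XEN, Klf2 (2.89 FPKM in Sox17-XEN and 0.322 FPKM in wild-type XEN) and the Nodal coreceptor Tdgf1 (0.119 FPKM in Sox17-XEN and 2.15 FPKM in wild-type XEN).

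Of 12 parietal endoderm markers compared, 0 were past the size (median 0.60). The parathyroid hormone receptor Pth1r, through which parietal endoderm is induced, was at 579 FPKM in Sox17-XEN and 228 FPKM in wild-type XEN. The retinol transporter Stra6 was at 324 FPKM in Sox17-XEN and 116 FPKM in wild-type XEN, the proteoglycan core protein Srgn at 944 FPKM in Sox17-XEN and 634 FPKM in wild-type XEN, and the EMT factor Snai1 at 157 FPKM in Sox17-XEN and 69.2 FPKM in wild-type XEN. Follistatin, Fst, was lower in level in Sox17-XEN, at 395 FPKM against 711 FPKM in wild-type XEN. Both libraries therefore held the defining XEN markers, and neither held the defining ESC markers at more than a few FPKM.

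**Figure D1:**
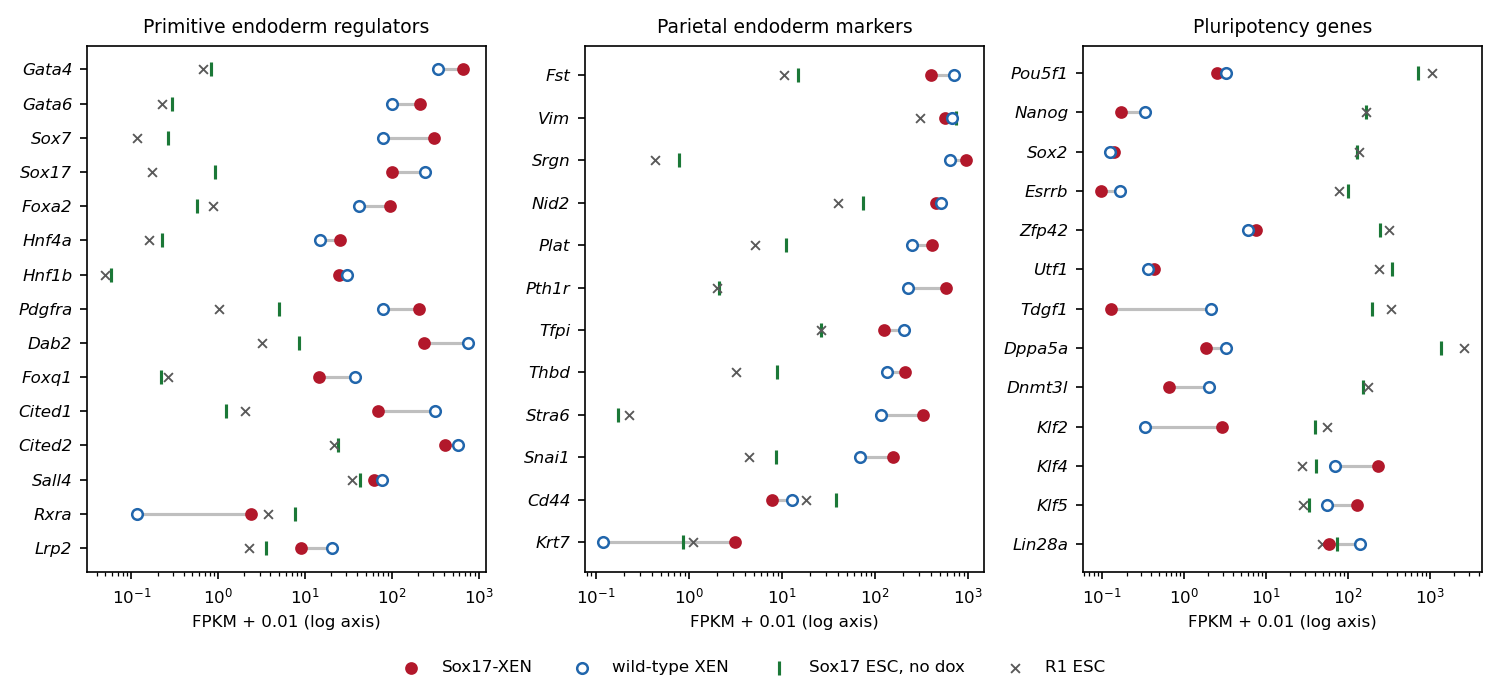
Levels of primitive endoderm regulators, parietal endoderm markers and pluripotency genes as FPKM + 0.01 on a log axis in Sox17-XEN (red), wild-type XEN (open blue), Sox17 ESC without dox (green bar) and R1 ESC (cross), 1 library each. The XEN-type lines lie closer to each other than to the ESC lines for Gata4, Gata6, Sox7, Pou5f1, Nanog and Sox2. Gata4 was at 660 FPKM in Sox17-XEN and 337 FPKM in wild-type XEN.

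Markers of fibroblast feeder cells differed more than any other list. Col1a1, a chain of type I collagen, was at 252 FPKM in Sox17-XEN and 0.490 FPKM in wild-type XEN. Its partner Col1a2 was at 184 FPKM in Sox17-XEN and 0.511 FPKM in wild-type XEN, and the type III collagen Col3a1 at 90.7 FPKM in Sox17-XEN and 0.116 FPKM in wild-type XEN. Of 22 listed markers, 21 could be compared and 18 were higher in Sox17-XEN, with a median of 4.01 log2 units, beside 0.00 over all genes compared. At 1 FPKM or more there were 21 markers in Sox17-XEN and 6 in wild-type XEN, and Fap was listed at 0 in wild-type XEN.

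The summed level of the 22 markers was 1010 FPKM in Sox17-XEN and 25.6 FPKM in wild-type XEN. In the Sox17 ESC line the sum came to 2618 FPKM with no dox, 1316 FPKM after 7 h and 1733 FPKM after 21 h. After 35 h it came to 2203 FPKM, after 49 h to 3383 FPKM and after 6 days to 229 FPKM, and R1 ESC had 1289 FPKM. Sox17-XEN thus lay below R1 ESC and below the Sox17 ESC line up to 49 h, and above the day 6 library, and wild-type XEN lay below all the others. Single markers in Sox17-XEN stood at 14.5% to 223% of their level in the line without dox (median 44.7%), with 18 of 21 below 100% and the matrix proteoglycans Aspn, Lum and Dcn above it. Relative to R1 ESC they stood at 16.7% to 931% (median 130%), with 13 of 21 above 100%. In bulk samples such as these, fewer cells of a type and less RNA per cell cannot be told apart. The part of feeder RNA in the matrix and other differences given next was not tested.

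**Figure D2:**
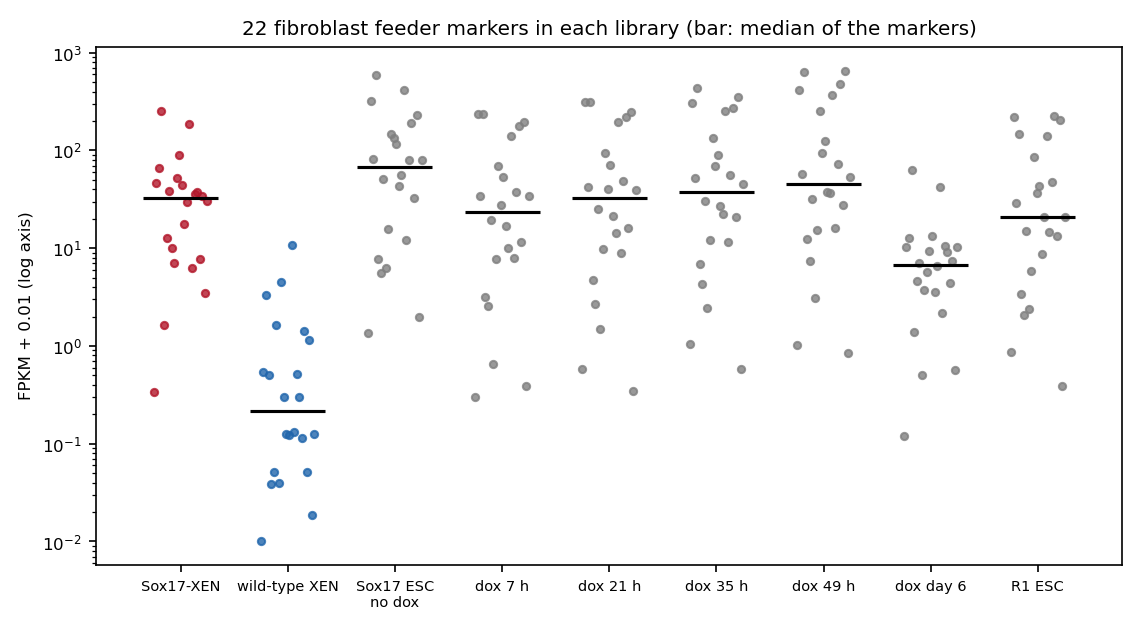
Levels of the 22 fibroblast feeder markers in each of the 9 libraries, as FPKM + 0.01 on a log axis, with a bar at their median. Wild-type XEN sits lowest, with a summed level of 25.6 FPKM against 1010 FPKM in Sox17-XEN and 1289 FPKM in R1 ESC.

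The other genes with a large difference in favour of Sox17-XEN included both genes that the ESC libraries held and genes that were low there. Of the 317 higher protein-coding genes, 158 (49.8%) were at 5 FPKM or more in both ESC libraries without dox, a smaller share than the 65.8% of all protein-coding genes compared. A further 59 (18.6%) were below 1 FPKM in both, against 6.49% of all. Sox17-XEN was above both ESC libraries at 194 of the 317 genes (61.2%), close to the 60.1% of all. Wild-type XEN was below both at 249 (78.5%), against 26.4% of all, a position that choosing genes low in wild-type XEN favours. Leaving out the feeder list, 299 genes were higher, with wild-type XEN below both ESC libraries at 231 (77.3%).

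The monoacylglycerol acyltransferase Mogat1 had the largest difference outside the feeder list. It was at 113 FPKM in Sox17-XEN and 0.137 FPKM in wild-type XEN (6.65 log2 units), with 1.45 FPKM at day 6, 0.0501 FPKM without dox and 0.0879 FPKM in R1 ESC. No other library came near the level in Sox17-XEN. Fbln1 (chr15:85036379-85116965 in mm9) encodes fibulin 1, a glycoprotein of elastic fibres and basement membranes. It was at 103 FPKM in Sox17-XEN and 0.421 FPKM in wild-type XEN (6.19 log2 units), with 73.7 FPKM at day 6, 22.5 FPKM without dox and 17.8 FPKM in R1 ESC. Sox17-XEN had the highest level of Fbln1 of the 9 libraries and wild-type XEN the lowest.

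The heparin-binding growth factor Ptn was at 66.8 FPKM in Sox17-XEN and listed at 0 in wild-type XEN, with 25.4 FPKM without dox. The lysyl oxidase Lox, which cross-links collagen and elastin, was at 70.6 FPKM in Sox17-XEN and 0.208 FPKM in wild-type XEN (5.89), and the line without dox had 120 FPKM. The antiangiogenic serpin Serpinf1 (96.8 FPKM in Sox17-XEN and 1.27 FPKM in wild-type XEN, 5.43), the IGF-binding protein Igfbp7 (37.1 FPKM in Sox17-XEN and 0.175 FPKM in wild-type XEN, 5.02), the collagen Col12a1 (54.6 FPKM in Sox17-XEN and 0.761 FPKM in wild-type XEN, 4.98) and osteopontin, Spp1 (84.6 FPKM in Sox17-XEN and 1.77 FPKM in wild-type XEN, 4.95), were also at lower levels in Sox17-XEN than in the line without dox. The water channel Aqp1 did not share that pattern. It was at 91.7 FPKM in Sox17-XEN and 1.67 FPKM in wild-type XEN (5.12), with 1.51 FPKM at day 6, 4.53 FPKM without dox and 0.910 FPKM in R1 ESC.

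**Figure D3:**
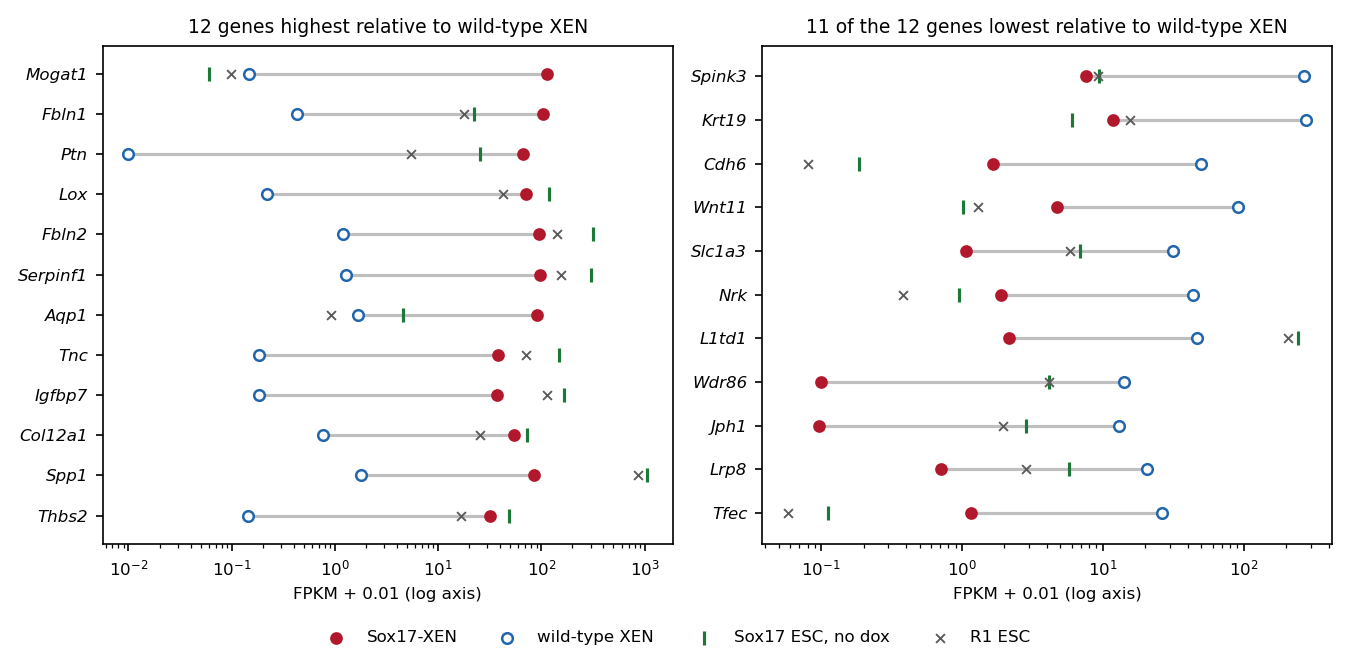
Levels in the XEN-type and ESC lines of the 12 highest and 11 of the 12 lowest protein-coding genes by difference, feeder list left out, as FPKM + 0.01 on a log axis in Sox17-XEN (red), wild-type XEN (open blue), Sox17 ESC without dox (green bar) and R1 ESC (cross). Mogat1 was below 0.2 FPKM and Aqp1 below 5 FPKM in each plotted line but Sox17-XEN, whereas Lox, Tnc and Spp1 were also high in both ESC libraries.

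A set of genes chosen after their values were seen was high in Sox17-XEN, present in wild-type XEN and below 1 FPKM in both ESC libraries. The protease inhibitor Wfdc1 was at 208 FPKM in Sox17-XEN and 33.9 FPKM in wild-type XEN, and at 0.0797 FPKM without dox. The myosin light chain Myl3 was at 214 FPKM in Sox17-XEN and 30.5 FPKM in wild-type XEN, with 9.59 FPKM at day 6. Gkn2, a gastrokine of the stomach lining, was at 103 FPKM in Sox17-XEN and 3.41 FPKM in wild-type XEN, with 0.542 FPKM at day 6 and a listed 0 without dox. None of the 3 is on the feeder list. In each the wild-type XEN level lay above the ESC levels too, a position that this choice of genes favours.

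Several receptors and transporters, chosen in the same way, were also low in the ESC libraries. The angiotensin receptor Agtr1a was at 43.7 FPKM in Sox17-XEN and 1.99 FPKM in wild-type XEN (3.90), and the noradrenaline transporter Slc6a2 at 33.6 FPKM in Sox17-XEN and 1.76 FPKM in wild-type XEN (3.65). The prostaglandin E2 receptor Ptger3 was at 53.3 FPKM in Sox17-XEN and 12.5 FPKM in wild-type XEN (2.01). The somatostatin receptor Sstr4 was at 17.4 FPKM in Sox17-XEN and 0.122 FPKM in wild-type XEN (4.04), a level in wild-type XEN that was within the range of the ESC libraries. The semaphorin Sema6d was at 98.1 FPKM in Sox17-XEN and 11.8 FPKM in wild-type XEN (2.96). Of the 317 higher genes, 35 (11.04%) were below 1 FPKM in both ESC libraries and at day 6, against 3.33% of all protein-coding genes compared, and 8 (2.52%) were below 1 FPKM in both ESC libraries but at 5 FPKM or more at day 6, against 1.15%.

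Elastic fibre and matrix glycoproteins were the list with the highest median after the feeder markers. Of 21 compared, 9 were higher and 0 were lower, beside 3.23% and 1.9% of all genes, and the median was 1.44 log2 units. Besides fibulin 1 these were fibulin 2, Fbln2 (94.4 FPKM in Sox17-XEN and 1.18 FPKM in wild-type XEN, 5.45), tenascin C, Tnc (37.9 FPKM in Sox17-XEN and 0.174 FPKM in wild-type XEN, 5.05), the thrombospondins Thbs2 (32.0 FPKM in Sox17-XEN and 0.135 FPKM in wild-type XEN, 4.86) and Thbs1 (222 FPKM in Sox17-XEN and 16.2 FPKM in wild-type XEN, 3.70), the TGF-beta binding protein Ltbp2 (13.3 FPKM in Sox17-XEN and 0.159 FPKM in wild-type XEN, 3.63), the microfibril proteins Mfap2 and Mfap5, and Spon1. Wild-type XEN was below both ESC libraries and day 6 at all 9 genes. Sox17-XEN was above both ESC libraries at 2 of them, Fbln1 and Spon1 (8.37 FPKM in Sox17-XEN and 0.238 FPKM in wild-type XEN, against 0.331 FPKM without dox). Fibroblasts express many of these genes, and the feeder list, which moves with them, includes Mfap5. The part of feeder cells in these differences was not tested.

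Basement membrane genes are the main secreted product of XEN cells, and the largest among them could not be compared. The estimates for the laminin-111 chains Lama1, Lamb1 and Lamc1 failed in both libraries because of too many fragments, and so did that of Sparc in Sox17-XEN, which had 8107 FPKM in wild-type XEN. The type IV collagens Col4a1 and Col4a2 were at 611 FPKM and 225 FPKM in Sox17-XEN and failed in wild-type XEN. Of the 15 genes compared, 3 were higher and 1 was lower, with a median of 1.13. Nidogen 1, Nid1, which links laminin to type IV collagen, was at 1325 FPKM in Sox17-XEN and 295 FPKM in wild-type XEN (2.16), with 55.2 FPKM without dox. Nidogen 2, Nid2, was at 452 FPKM in Sox17-XEN and 505 FPKM in wild-type XEN. The collagens Col18a1 (4.87 FPKM in Sox17-XEN and 0.136 FPKM in wild-type XEN) and Col4a5 (3.22 FPKM in Sox17-XEN and 0.0291 FPKM in wild-type XEN) were higher at low levels, and both were below their level without dox. The proteoglycan agrin, Agrn, was lower, at 20.9 FPKM in Sox17-XEN and 93.3 FPKM in wild-type XEN (-2.11).

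Enzymes that process collagen stood much closer. Of 19 compared, Lox and Loxl1 (7.73 FPKM in Sox17-XEN and 0.0411 FPKM in wild-type XEN, 3.07) were higher, 0 were lower and the median was 0.56. Loxl1 is on the feeder list as well. The lysyl hydroxylase Plod1 was at 368 FPKM in Sox17-XEN and 153 FPKM in wild-type XEN, and the prolyl hydroxylase Leprel1 at 48.2 FPKM in Sox17-XEN and 126 FPKM in wild-type XEN.

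Creb3l1 (chr2:91822485-91864659 in mm9) encodes OASIS, a membrane-bound transcription factor that is cut free in the Golgi and drives secretory and collagen genes. It was at 291 FPKM in Sox17-XEN and 9.56 FPKM in wild-type XEN, a difference of 4.79 log2 units or 30.4-fold. The day 6 cells had 39.2 FPKM, the line without dox 14.6 FPKM and R1 ESC 6.58 FPKM, so Sox17-XEN had the highest level by far and wild-type XEN lay within the range of the ESC libraries. Of 23 stress sensors and unfolded protein response genes compared, Creb3l1 and the glutathione-degrading enzyme Chac1 were higher and 0 were lower (median 0.42). Chac1 was at 45.3 FPKM in Sox17-XEN and 6.05 FPKM in wild-type XEN (2.71). Creb3l3, a liver relative of OASIS, was at 4.64 FPKM in Sox17-XEN and 0.550 FPKM in wild-type XEN.

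The chaperones of the endoplasmic reticulum did not follow Creb3l1. None of 28 folding and coat complex II genes was past the size. The median was -0.25, with 10 differences above 0 and 18 below. The members named next lay further from 0 than this median. The chaperone Hspa5 (BiP) was at 579 FPKM in Sox17-XEN and 1517 FPKM in wild-type XEN (-1.39), the chaperone cofactor Sdf2l1 at 43.7 FPKM in Sox17-XEN and 170 FPKM in wild-type XEN (-1.93), and the secreted stress protein Manf at 218 FPKM in Sox17-XEN and 712 FPKM in wild-type XEN (-1.70). The coat protein Sec24d, which serves collagen export, was at 103 FPKM in Sox17-XEN and 43.1 FPKM in wild-type XEN (1.24).

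Cholesterol synthesis and uptake was the list with the lowest median. Of 26 genes compared, 10 were lower in Sox17-XEN and 0 were higher, beside 1.9% and 3.23% of all genes, and 25 of 26 had a difference below 0. The median was -1.70 log2 units, and the median gene stood at 30.1% of its level in wild-type XEN. Cells make cholesterol from acetyl-CoA through mevalonate and squalene. The factor SREBP2 switches on nearly all the enzymes when sterols run low, and in many of its target promoters it acts beside NF-Y, which binds CCAAT boxes.

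For 5 of the 10 lower genes the RefSeq table (GRCm38.p6) held a promoter, and the 150 bases before each start are printed because these genes moved together. Where a gene had several entries, the entry with the most CCAAT in the 250 bases before its start was printed. Capitals mark CCAAT on either strand, so that ATTGG is the same box read from the opposite strand, and each line runs 5′ to 3′ towards the start of the gene.
Sc4mol (Msmo1), chr8:64733579-64733728, minus strand: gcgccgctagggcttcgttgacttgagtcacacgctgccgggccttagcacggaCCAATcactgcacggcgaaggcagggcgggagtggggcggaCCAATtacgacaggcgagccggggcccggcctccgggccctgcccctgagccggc
Mvd, chr8:122443423-122443572, minus strand: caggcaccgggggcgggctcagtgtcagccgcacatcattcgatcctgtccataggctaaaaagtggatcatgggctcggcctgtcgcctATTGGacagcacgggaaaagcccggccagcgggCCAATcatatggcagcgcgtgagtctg
Idi1, chr13:8885456-8885605, plus strand: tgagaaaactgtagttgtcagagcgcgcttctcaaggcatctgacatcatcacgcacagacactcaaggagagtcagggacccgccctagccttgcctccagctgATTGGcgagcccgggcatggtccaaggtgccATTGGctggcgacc
Dhcr7, chr7:143830064-143830213, plus strand: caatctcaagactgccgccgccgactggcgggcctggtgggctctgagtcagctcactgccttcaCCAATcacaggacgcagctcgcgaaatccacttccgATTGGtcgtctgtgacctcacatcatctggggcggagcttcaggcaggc
Cyp51, chr5:4104698-4104847, minus strand: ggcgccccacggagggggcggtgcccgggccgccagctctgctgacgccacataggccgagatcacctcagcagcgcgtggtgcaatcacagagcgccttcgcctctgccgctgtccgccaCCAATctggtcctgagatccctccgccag

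Each of these promoters held at least 1 CCAAT in the 250 bases before the start. Of the 18 cholesterol genes with an entry, 16 (88.9%) held it in at least 1 entry, against 37.5% of 27025 genes in the table. The sterol regulatory element was searched as TCACNCCAC on both strands. It was in 0 of these 18 windows and in 1.22% of all, so no overlap with CCAAT arose. A match is only a match of letters, and these boxes are shared by genes of the list that were past the size and genes that were not.

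The early enzymes Acat2, Mvk and Pmvk were not past the size. The kinase Mvk was at 12.3 FPKM in Sox17-XEN and 22.96 FPKM in wild-type XEN (-0.85). The following steps were lower. The decarboxylase Mvd was at 6.91 FPKM in Sox17-XEN and 44.7 FPKM in wild-type XEN (-2.53), the isomerase Idi1 at 4.42 FPKM in Sox17-XEN and 28.9 FPKM in wild-type XEN (-2.47), and the farnesyl diphosphate synthase Fdps at 23.6 FPKM in Sox17-XEN and 170 FPKM in wild-type XEN (-2.80).

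Sqle (chr15:59146632-59162747 in mm9) encodes squalene epoxidase, the enzyme that commits squalene to sterols. It was at 9.97 FPKM in Sox17-XEN and 82.2 FPKM in wild-type XEN (-2.92), with 14.9 FPKM at day 6, 37.5 FPKM without dox and 28.5 FPKM in R1 ESC. Sox17-XEN was the lowest and wild-type XEN the highest of the 9 libraries. Among enzymes that turn lanosterol into cholesterol, Sc4mol was at 7.01 FPKM in Sox17-XEN and 75.9 FPKM in wild-type XEN (-3.26), Cyp51 at 13.2 FPKM in Sox17-XEN and 72.5 FPKM in wild-type XEN (-2.37), and Dhcr7 at 10.9 FPKM in Sox17-XEN and 62.3 FPKM in wild-type XEN (-2.41).

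Receptors of lipoproteins and regulators of the pathway were compared as well. The receptors Lrp8 (0.699 FPKM in Sox17-XEN and 20.5 FPKM in wild-type XEN, -3.66) and Vldlr (4.59 FPKM in Sox17-XEN and 47.3 FPKM in wild-type XEN, -3.11), which are not on the list, were lower, Vldlr being chosen after its value was seen. The regulators stood closer. Srebf2, which encodes SREBP2, was at 35.3 FPKM in Sox17-XEN and 95.2 FPKM in wild-type XEN (-1.41), its escort Scap at 13.02 FPKM in Sox17-XEN and 14.5 FPKM in wild-type XEN, and Insig2 at 36.0 FPKM in Sox17-XEN and 28.5 FPKM in wild-type XEN, the only member with a difference above 0. The SREBP2 target Insig1, which holds Scap in the endoplasmic reticulum, was at 152 FPKM in Sox17-XEN and 509 FPKM in wild-type XEN (-1.74).

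The ESC libraries place the gap on both sides. Sox17-XEN was below both ESC libraries without dox at 18 of the 26 genes and wild-type XEN was above both at 23, beside 27.7% and 61.1% of all protein-coding genes compared. Wild-type XEN had the highest level of the 9 libraries at 20 of 26. Over all protein-coding genes compared, it was above all 7 libraries outside the pair at 39.5%. A list with 25 of 26 differences below 0 favours these positions. Relative to wild-type XEN the median gene was at 30.1% in Sox17-XEN, 40.8% at day 6, 55.5% without dox and 43.4% in R1 ESC. 

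**Figure D4:**
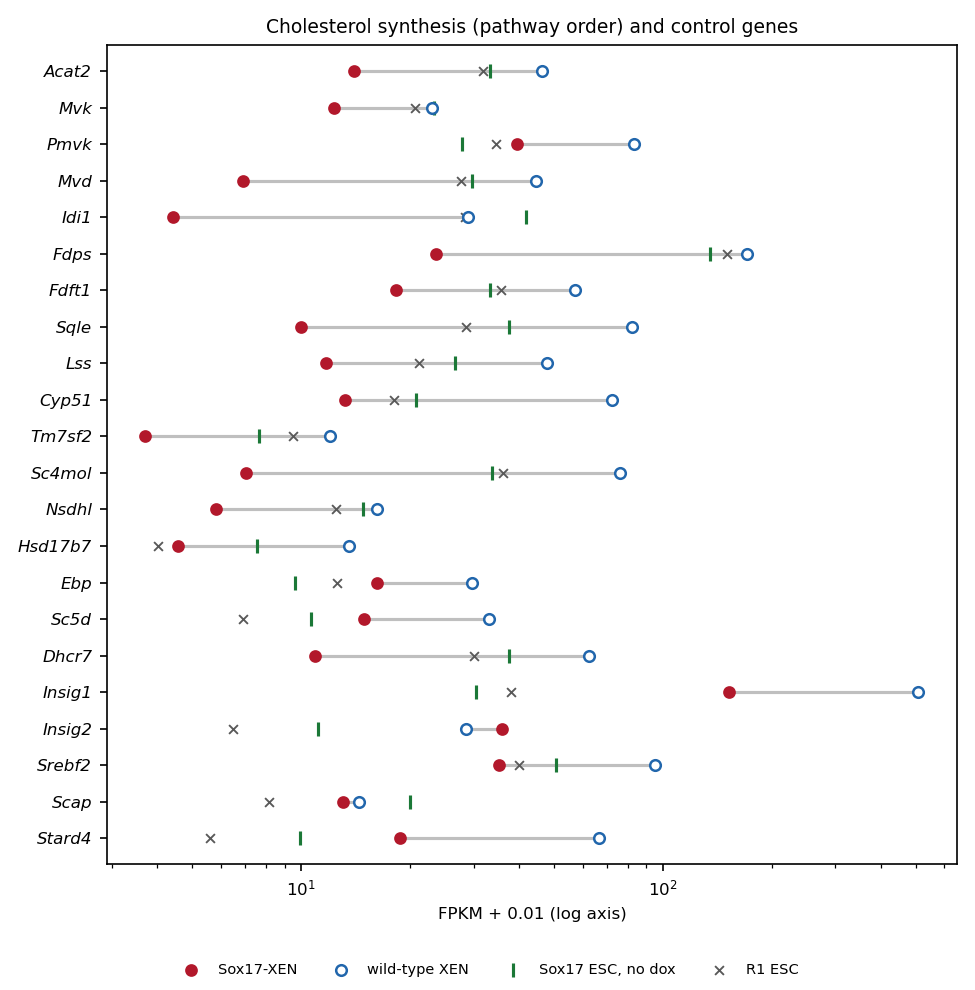
Levels of 22 of the 26 cholesterol genes compared, synthesis in pathway order and control genes after it, as FPKM + 0.01 on a log axis in Sox17-XEN (red), wild-type XEN (open blue), Sox17 ESC without dox (green bar) and R1 ESC (cross). The red points lie left of the blue at every gene but Insig2, with Sc4mol at 7.01 FPKM in Sox17-XEN and 75.9 FPKM in wild-type XEN.

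Fatty acid synthesis genes leaned the same way with smaller differences. Of 20 compared, 16 had a difference below 0 and the median was -0.90, but only the desaturase Fads2 was past the size, at 15.0 FPKM in Sox17-XEN and 95.5 FPKM in wild-type XEN (-2.60). Fatty acid synthase, Fasn, was at 49.4 FPKM in Sox17-XEN and 175 FPKM in wild-type XEN (-1.80). Glycolysis and hypoxia genes had a median of -1.03, with 20 of 24 below 0 and 3 lower. These were the glucose transporter Slc2a3 (217 FPKM in Sox17-XEN and 1628 FPKM in wild-type XEN, -2.90), the hypoxia-responsive Ndrg1 (22.9 FPKM in Sox17-XEN and 187 FPKM in wild-type XEN, -2.98) and aldolase C, Aldoc (3.28 FPKM in Sox17-XEN and 27.1 FPKM in wild-type XEN, -2.71). Pgam1 (189 FPKM in Sox17-XEN and 629 FPKM in wild-type XEN) and Gapdh (1271 FPKM in Sox17-XEN and 3194 FPKM in wild-type XEN) were not past the size, and Pfkp, a phosphofructokinase, was at 5.71 FPKM in Sox17-XEN and 1.95 FPKM in wild-type XEN.

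Among the genes lowest in Sox17-XEN, the trypsin inhibitor Spink3 led with 7.53 FPKM in Sox17-XEN and 268 FPKM in wild-type XEN (-4.98). Day 6 cells had 457 FPKM, and the line without dox 9.35 FPKM. Keratin 19, Krt19, an epithelial filament protein, was at 11.9 FPKM in Sox17-XEN and 277 FPKM in wild-type XEN (-4.43), with 9.74 FPKM at day 6. The glutamate transporter Slc1a3 (1.05 FPKM in Sox17-XEN and 31.5 FPKM in wild-type XEN, -3.99), the kinase Nrk (1.88 FPKM in Sox17-XEN and 43.7 FPKM in wild-type XEN, -3.96) and the transcription factor Tfec (1.15 FPKM in Sox17-XEN and 26.2 FPKM in wild-type XEN, -3.66) were highest in wild-type XEN of all libraries. The RNA-binding protein L1td1, a gene of pluripotent cells, was at 2.13 FPKM in Sox17-XEN, 46.2 FPKM in wild-type XEN and 207 FPKM in R1 ESC. Wdr86 and the junctophilin Jph1, which ties the endoplasmic reticulum to the plasma membrane, were below 0.1 FPKM in Sox17-XEN and at 14.2 FPKM (Wdr86) and 12.9 FPKM (Jph1) in wild-type XEN.

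Of the 153 lower protein-coding genes, Sox17-XEN was below both ESC libraries without dox at 98 (64.1%), against 27.7% of all protein-coding genes compared. Wild-type XEN was above both at 133 (86.9%), against 61.1% of all, and above all 7 libraries outside the pair at 95 (62.1%), against 39.5%. Choosing genes low in Sox17-XEN and high in wild-type XEN favours these positions. In the day 6 library 107 of the 153 (69.9%) were at 5 FPKM or more, against 75.7% of all protein-coding genes compared, and 15 (9.80%) were below 1 FPKM in both ESC libraries and at 5 FPKM or more at day 6, against 1.15% of all.

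Adhesion genes differed by single members. Cdh6 (chr15:12963955-13103394 in mm9), a classical cadherin of early epithelia, was at 1.66 FPKM in Sox17-XEN and 49.8 FPKM in wild-type XEN (-4.26). It was at 19.7 FPKM at day 6, 0.176 FPKM without dox and 0.0712 FPKM in R1 ESC, so that day 6 lay between the XEN-type lines. Desmoglein 2, Dsg2 (0.211 FPKM in Sox17-XEN and 10.02 FPKM in wild-type XEN, -3.19), and the protocadherin Pcdh1 (3.47 FPKM in Sox17-XEN and 18.3 FPKM in wild-type XEN, -2.11) were lower as well. Vascular endothelial cadherin, Cdh5, was higher at 85.1 FPKM in Sox17-XEN and 19.8 FPKM in wild-type XEN (2.05), with 0.0753 FPKM without dox, and the mesenchymal Cdh11 was higher at 9.66 FPKM in Sox17-XEN and 0.145 FPKM in wild-type XEN (3.22), with 30.5 FPKM without dox. In all, 2 of 17 cadherins and catenins were higher and 3 lower (median 0.15). Of 13 tight junction and polarity genes the claudin Cldn6 was lower, at 11.3 FPKM in Sox17-XEN and 113 FPKM in wild-type XEN (-3.21), and 0 were higher. Among 17 epithelial-mesenchymal genes fibronectin, Fn1, was higher (247 FPKM in Sox17-XEN and 31.5 FPKM in wild-type XEN, 2.93) and Krt19 lower, and of 10 integrins Itga11, a collagen receptor, was higher (5.10 FPKM in Sox17-XEN and 0.0169 FPKM in wild-type XEN, 2.59).

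Wnt11 encodes a ligand that acts mostly outside the beta-catenin branch of Wnt signalling. It was at 4.73 FPKM in Sox17-XEN and 90.4 FPKM in wild-type XEN (-3.996), with 18.9 FPKM at day 6, 0.998 FPKM without dox and 1.29 FPKM in R1 ESC. Wild-type XEN had the highest level, and Sox17-XEN lay between day 6 and the ESC libraries. It was the only one of 6 Wnt ligands compared that was past the size. Porcn, the enzyme that lipidates Wnt proteins for secretion, was at 34.5 FPKM in Sox17-XEN and 178 FPKM in wild-type XEN (-2.34), and the receptor Fzd6 at 2.50 FPKM in Sox17-XEN and 17.6 FPKM in wild-type XEN (-2.41).

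Of 25 Wnt receptors, modulators and targets, 4 were higher and 2 lower (median 0.74). The higher genes were Axin2, a feedback target of beta-catenin (10.3 FPKM in Sox17-XEN and 0.702 FPKM in wild-type XEN, 2.72), Dkk3 (18.3 FPKM in Sox17-XEN and 3.40 FPKM in wild-type XEN, 2.13), the Wnt carrier Wls (18.2 FPKM in Sox17-XEN and 3.46 FPKM in wild-type XEN, 2.104) and the R-spondin receptor Lgr4 (35.0 FPKM in Sox17-XEN and 7.89 FPKM in wild-type XEN, 2.02).

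The FGF and PDGF list went both ways, with 3 of 21 higher and 3 lower (median 0.15), beside 3.23% and 1.9% of all genes. The immediate early gene Egr1 was at 34.7 FPKM in Sox17-XEN and 0.710 FPKM in wild-type XEN (4.38), Fgf3, a ligand made by parietal endoderm, at 56.3 FPKM in Sox17-XEN and 7.13 FPKM in wild-type XEN (2.82), and the receptor Fgfr1 at 6.76 FPKM in Sox17-XEN and 0.491 FPKM in wild-type XEN (2.38). The ERK phosphatases Dusp6 (5.81 FPKM in Sox17-XEN and 37.7 FPKM in wild-type XEN, -2.51) and Dusp4 (2.59 FPKM in Sox17-XEN and 20.3 FPKM in wild-type XEN, -2.57) and the ETS factor Etv5 (2.67 FPKM in Sox17-XEN and 16.0 FPKM in wild-type XEN, -2.21) were lower. Egr1 and the other 3 are all known as readouts of ERK signalling, and here they differed in opposite directions.

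Of 25 TGF-beta, BMP and Nodal pathway genes, 6 were higher and 0 lower (median 0.56), beside 3.23% and 1.9% of all genes. The ligand Bmp2 was at 48.5 FPKM in Sox17-XEN and 9.56 FPKM in wild-type XEN (2.23), and below 0.1 FPKM in both ESC libraries without dox. The receptors Tgfbr2 (17.1 FPKM in Sox17-XEN and 2.51 FPKM in wild-type XEN, 2.36) and Tgfbr3 (92.3 FPKM in Sox17-XEN and 15.8 FPKM in wild-type XEN, 2.48) and the BMP target Id3 (18.5 FPKM in Sox17-XEN and 1.87 FPKM in wild-type XEN, 2.76) were higher, as were the activin subunit Inhba (7.95 FPKM in Sox17-XEN and 0.0242 FPKM in wild-type XEN, 3.13) and the BMP antagonist Grem1 (8.53 FPKM in Sox17-XEN and 0.0122 FPKM in wild-type XEN, 3.24). Inhba, Grem1 and Id3 were below their levels without dox in Sox17-XEN, and Bmp2, Tgfbr2 and Tgfbr3 above.

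In the IGF axis 4 of 17 genes were higher and 1 lower (median 0.03), beside 3.23% and 1.9% of all genes. Igf2, an imprinted growth factor, was at 15.8 FPKM in Sox17-XEN and 0.0279 FPKM in wild-type XEN (4.03), with 170 FPKM at day 6 and 8.44 FPKM without dox. Igf1 was at 1.52 FPKM in Sox17-XEN and 23.6 FPKM in wild-type XEN (-3.29), with 20.5 FPKM at day 6. The binding proteins Igfbp4 (53.6 FPKM in Sox17-XEN and 11.003 FPKM in wild-type XEN) and Igfbp3 (4.91 FPKM in Sox17-XEN and 0.0580 FPKM in wild-type XEN) were higher beside Igfbp7.

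Of 19 imprinted genes 4 were higher and 1 lower (median 0.39), beside 3.23% and 1.9% of all genes. The maternally expressed RNA Meg3 was at 78.8 FPKM in Sox17-XEN and 0.366 FPKM in wild-type XEN (5.87), and Rian, from the same cluster, at 11.1 FPKM in Sox17-XEN and 0.103 FPKM in wild-type XEN (3.45). The paternally expressed Dlk1 of that cluster was at 4.51 FPKM in Sox17-XEN and listed at 0 in wild-type XEN. Both RNAs were at higher levels at day 6, with 739 FPKM of Meg3 and 326 FPKM of Rian. The growth inhibitor Grb10 was lower, at 6.404 FPKM in Sox17-XEN and 88.0 FPKM in wild-type XEN (-3.59), with 31.6 FPKM without dox.

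Visceral endoderm markers leaned towards wild-type XEN, with 3 of 10 lower, 0 higher and a median of -0.79. Over all genes compared, 1.9% were lower, 3.23% were higher and the median was 0.00. Apolipoprotein E, Apoe, was at 32.1 FPKM in Sox17-XEN and 296 FPKM in wild-type XEN (-3.17), against 6772 FPKM at day 6. The uptake receptor cubilin, Cubn, was at 15.5 FPKM in Sox17-XEN and 118 FPKM in wild-type XEN (-2.86), against 939 FPKM at day 6, and the retinol carrier Rbp4 at 6.63 FPKM in Sox17-XEN and 55.2 FPKM in wild-type XEN (-2.88). The signal Ihh was at 7.12 FPKM in Sox17-XEN and 2.37 FPKM in wild-type XEN (1.27). Of 7 anterior visceral and definitive endoderm markers Nepn was lower (6.19 FPKM in Sox17-XEN and 28.5 FPKM in wild-type XEN, -2.04) and 0 were higher.

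Of 25 endocytosis and lysosome genes 2 were higher and 2 lower (median -0.30). The protease legumain, Lgmn, was at 344 FPKM in Sox17-XEN and 1575 FPKM in wild-type XEN (-2.19). The lysosomal hydrolases Gusb (27.1 FPKM in Sox17-XEN and 0.493 FPKM in wild-type XEN, 4.23) and Hexa (28.2 FPKM in Sox17-XEN and 1.70 FPKM in wild-type XEN, 3.43) were higher, and wild-type XEN held less of both than the ESC libraries, with 15.0 FPKM of Gusb and 24.3 FPKM of Hexa without dox. Other genes that were abundant at day 6 and lower in Sox17-XEN, chosen after their values were seen, were the carbonic anhydrase Car4 (1.296 FPKM in Sox17-XEN, 23.7 FPKM in wild-type XEN and 652 FPKM at day 6) and the sialic acid lyase Npl (2.83 FPKM in Sox17-XEN, 32.7 FPKM in wild-type XEN and 431 FPKM at day 6).

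Heparan sulfate and proteoglycan genes had 5 of 24 higher and 1 lower (median 0.56). Glypican 3, Gpc3, which restrains growth, was at 6.98 FPKM in Sox17-XEN and 77.6 FPKM in wild-type XEN (-3.30), against 920 FPKM at day 6. Glypican 1, Gpc1 (6.57 FPKM in Sox17-XEN and 0.660 FPKM in wild-type XEN), syndecan 3, Sdc3 (9.55 FPKM in Sox17-XEN and 0.353 FPKM in wild-type XEN), biglycan, Bgn (181 FPKM in Sox17-XEN and 36.6 FPKM in wild-type XEN), decorin, Dcn (12.6 FPKM in Sox17-XEN and 0.0418 FPKM in wild-type XEN), and the sulfotransferase Hs6st2 (24.8 FPKM in Sox17-XEN and 5.26 FPKM in wild-type XEN) were higher in Sox17-XEN. Decorin is on the feeder list. Of 14 coagulation, fibrinolysis and serpin genes 3 were higher and 1 was lower. Serpinf1 and Serpine2 (53.5 FPKM in Sox17-XEN and 10.7 FPKM in wild-type XEN) were among the higher genes, and Habp2 (1.004 FPKM in Sox17-XEN and 11.1 FPKM in wild-type XEN) was lower. Tissue factor, F3, was abundant in both, at 804 FPKM in Sox17-XEN and 305 FPKM in wild-type XEN.

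Sox21 was the only one of 17 SOX, GATA and FOX factors past the size (9.97 FPKM in Sox17-XEN and 1.52 FPKM in wild-type XEN, 2.12). Of 20 MHC class I and interferon-response genes 3 were lower, the class I heavy chains H2-D1 (49.0 FPKM in Sox17-XEN and 248 FPKM in wild-type XEN, -2.31) and H2-K1 (29.0 FPKM in Sox17-XEN and 133 FPKM in wild-type XEN, -2.16) and Oasl2 (0.753 FPKM in Sox17-XEN and 6.52 FPKM in wild-type XEN, -2.10). Reads of near-identical class I genes can be split between them. Of 4 trophoblast markers Plac1 was lower (0.144 FPKM in Sox17-XEN and 4.15 FPKM in wild-type XEN).

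Cell-cycle genes were close between the lines. None of 23 proliferation genes was past the size (median -0.15), with the marker Mki67 at 74.3 FPKM in Sox17-XEN and 51.9 FPKM in wild-type XEN and Top2a at 235 FPKM in Sox17-XEN and 232 FPKM in wild-type XEN. None of 17 p53 targets and cell-cycle inhibitors was either (median -0.10), and the inhibitor Cdkn2a was at 32.9 FPKM in Sox17-XEN and 35.3 FPKM in wild-type XEN. The p53 target Pmaip1 is not on that list and was higher, at 24.3 FPKM in Sox17-XEN and 0.0329 FPKM in wild-type XEN. Of 15 housekeeping genes Gusb was higher, and the median was -0.24, with Actb at 974 FPKM in Sox17-XEN and 907 FPKM in wild-type XEN.

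**Figure D5:**
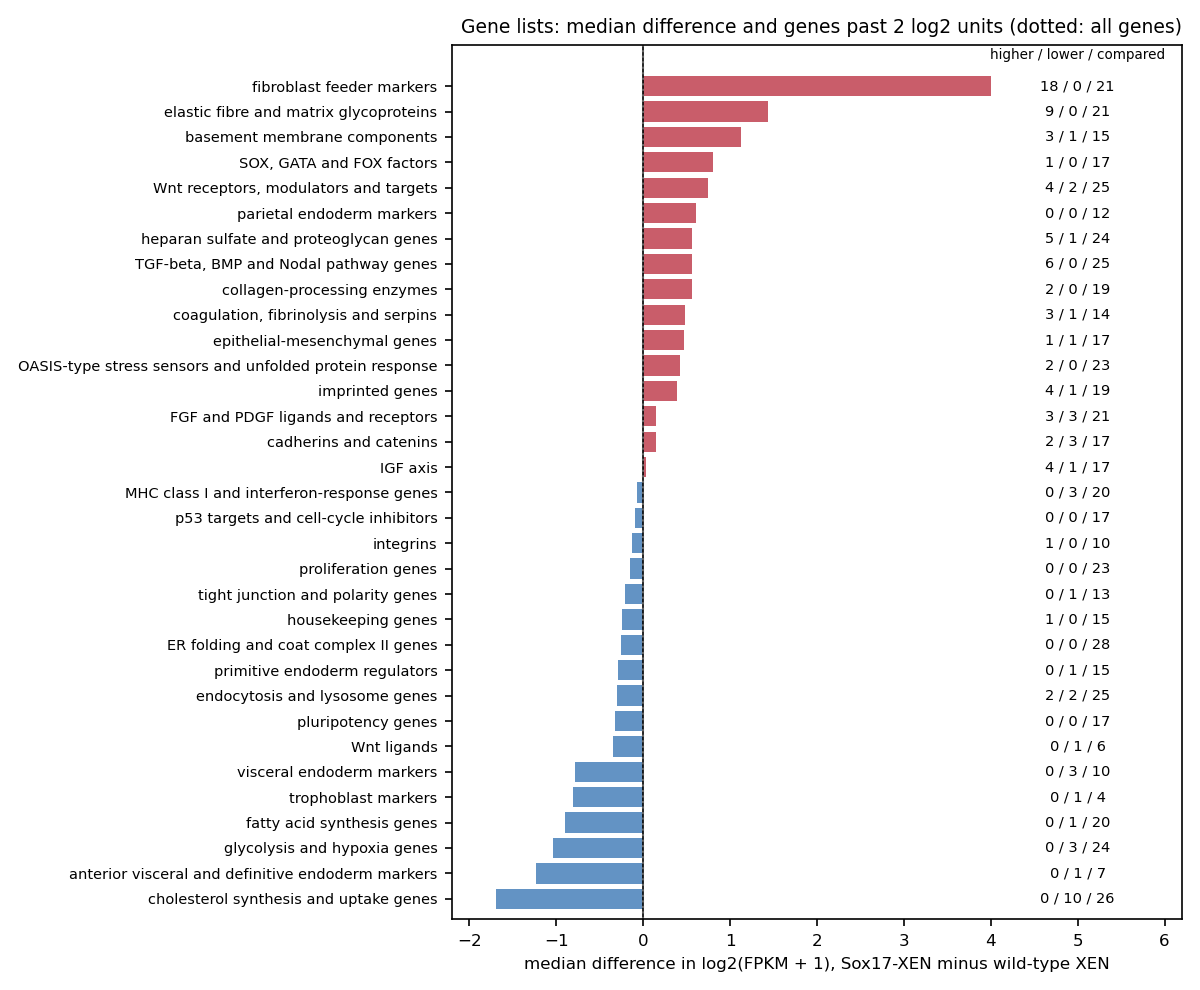
Median difference in log2(FPKM + 1), Sox17-XEN minus wild-type XEN, of each gene list (bars), with the number of members higher, lower and compared at the right. The dotted line marks the median of all genes compared, 0.00, and the lists run from fibroblast feeder markers at 4.01 to cholesterol genes at -1.70.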

How the data were processed

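RNA sequencing of 9 mouse libraries was used, 1 per group. Total RNA was extracted with Trizol and made into TruSeq libraries, per the labels' protocols. Per the submitters' processing notes the tools were TopHat2 2.0.11, Cufflinks 2.1.2 and Cuffdiff, on mm9. Per the file headers, the deposited values are FPKM for each gene, with the authors' confidence bounds and a status. Use of strand is not given in the sources used here. FPKM scales with all other transcripts of a library, and it holds no counts, so no count test was run and no counting interval is given.

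Values whose status was not OK (417 in Sox17-XEN and 425 in wild-type XEN) were treated as missing. The difference in log2(FPKM + 1) was computed with a pseudocount of 1 FPKM where the higher value reached 1 FPKM, which understates the change of low genes. Chromosome Y genes were left out. Of the identifiers, 32917 matched GENCODE M21, used for gene type alone. Coordinates of genes are mm9 from the deposited table, and promoters come from RefSeq GRCm38.p6, matched by symbol, with no conversion between them.

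Named genes were the 5 genes Fbln1, Creb3l1, Cdh6, Wnt11 and Sqle, 8 fixed regulators, the 12 largest protein-coding differences in each direction outside the feeder list, and up to 4 members per list past 2 log2 units. Further list members, and genes said to be chosen after their values were seen, lie outside this rule. Some genes of the lists count in the totals and are not reported here by name. The members and the 34 lists were chosen with earlier results of these data known. The calling step was run on values simulated from wild-type XEN levels of 5 FPKM or more, with large set changes. Such a run checks the calling step alone, and not the error between libraries or at low FPKM. Alternatives were the pseudocount, the filter, centring, shared loci, the size of difference, the intervals, gene type and the feeder list. Python 3.11.15, numpy 2.4.6, pandas 2.3.3 and matplotlib 3.10.9 were used.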

Additional observations from a re-analysis of the deposited data

How the results depend on the processing

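Of the alternatives run, only centring could change the direction of a named gene, and it changed none. Counts past the size depended on the alternatives. With a pseudocount of 0.1 FPKM the number of genes past the size was 1342 (869 higher and 473 lower), and with 5 FPKM 239 (135 and 104), when 5 elastic fibre and matrix glycoproteins were higher in place of 9. Without genes that share a locus it was 363 (236 and 127), and 1 glycolysis gene was lower in place of 3. A size of 1 log2 unit gave 2368 genes (1356 and 1012), and 3 log2 units gave 272 (172 and 100). Of 62 further counts of list members past the size, 23 moved by over 1.5 times, or to or from 0, with 0.1 FPKM, 17 with 5 FPKM, 15 without shared loci, 2 with a maximum of 5 FPKM and 1 with centring. With 5 FPKM, 36 of 119 named genes were no longer past the size, among them Axin2, Bmp2, Cdh5, Dusp6 and Agrn, and with centring Nepn was not. The 119 include fixed regulators such as Gata4, Gata6 and Sox7, which were not past the size as reported and so could not be lost. The condition that intervals do not overlap left 1 gene, Col5a1 of the feeder list (1 higher and 0 lower). With protein-coding genes only, 153 were lower. Both settings that use the ESC levels were chosen after seeing the data. Leaving out genes at 1 FPKM or more in either ESC library without dox left 158 (84 and 74), and leaving out those at 5 FPKM or more in both left 354 (205 and 149). A maximum of 5 FPKM (564), no filter (643), centring (654) and leaving out the feeder list (625) kept the count within 1.5 times. Without the filter the count could not change, because a gene below 1 FPKM in both libraries cannot reach the size. No paired analysis was possible because each group has 1 library and no test was made. With no read counts and no replicates, small differences and genes at low FPKM cannot be resolved here.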

Other observations

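Genes that were low in a single line were counted after the data were seen. At 5 FPKM or more in the other 8 libraries and below 1 FPKM in wild-type XEN there were 44 genes, 9 of them on the feeder list. Below 1 FPKM in Sox17-XEN by the same measure there were 5. The number of genes that could meet either measure was not counted. Most libraries come from the Sox17 ESC line and wild-type XEN does not, which favours genes low in wild-type XEN alone. Wild-type XEN also had the lowest summed level of feeder markers, 25.6 FPKM. The part of feeder RNA in these counts was not tested. Besides the matrix genes already described, the 44 include the death receptor Tnfrsf10b (0.0976 FPKM in wild-type XEN and 8.42 to 22.3 FPKM elsewhere), the histone variant gene H2afy2 (0.139 FPKM in wild-type XEN and 10.1 to 31.1 FPKM elsewhere), the small heat shock protein Hspb1 (0.553 FPKM in wild-type XEN and 17.2 to 247 FPKM elsewhere) and the Polycomb protein Cbx7 (0.830 FPKM in wild-type XEN and 8.03 to 121 FPKM elsewhere). The NADPH oxidase subunit Cyba was listed at 0 in wild-type XEN and was at 14.9 to 70.3 FPKM elsewhere. The 5 genes low in Sox17-XEN include the centromere protein Cenpv (0.501 FPKM in Sox17-XEN and 5.55 to 50.3 FPKM elsewhere) and the sugar mutarotase Galm (0.843 FPKM in Sox17-XEN and 5.71 to 17.2 FPKM elsewhere).

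Pmaip1 and Cyp27a1 were chosen after their values were seen. The p53 target Pmaip1 was at 24.3 FPKM in Sox17-XEN and 0.0329 FPKM in wild-type XEN (4.61 log2 units), with 7.01 FPKM in the Sox17 ESC line without dox. The sterol hydroxylase Cyp27a1 was at 18.3 FPKM in Sox17-XEN and 0.105 FPKM in wild-type XEN (4.13), with 9.04 FPKM at day 6 and 0.774 FPKM without dox.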
